A study of Mus musculus with 7 samples.

Results

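The genes described here transmit or restrain signals from cytokine receptors, and they were examined in mouse blood progenitors with and without a deletion in chromosome band 5G2. They were chosen by symbol in the deposited table: the SH2B adaptors Sh2b1, Sh2b2 and Sh2b3, the ubiquitin ligases Cbl and Cblb, the kinases Jak1 and Jak2, the suppressors Socs2 and Cish, and the phosphatase Ptpn11. All 10 of 10 symbols were found among the 16760 listed genes. The rule names symbols and sets no threshold on a level or fold change, but the genes were picked with earlier results of these data known. RNA sequencing covered CD150-negative cells labelled as HSCs (haematopoietic stem cells), all of strain C57/B6, in 3 libraries of genotype 5G2del and 4 of genotype WT. Band 5G2 is the mouse counterpart of part of human 7q22, a segment that is recurrently lost in myeloid malignancies. The sources used here do not give the ends, length or zygosity of the deletion, the ages of the mice or whether each library came from its own animal. P-values below therefore describe the spread among libraries, some of it possibly technical.

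Many cytokine receptors of blood progenitors have no kinase domain of their own and rely on bound JAK kinases, while others, such as KIT and FLT3, are kinases themselves. JAK kinases phosphorylate the receptor and the STAT transcription factors after a ligand such as erythropoietin binds. SH2B adaptors dock on phosphorylated receptors and JAK2. Sh2b3, also called LNK, is a well known brake on JAK2 signalling in stem cells, whereas Sh2b1 enhances JAK2 activity in several cell systems and Sh2b2, also called APS, recruits CBL. CBL ligases tag active receptors for degradation, and the SOCS proteins, themselves STAT targets, close the feedback loop.

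Each library held between 37930174 and 52194274 expected counts on listed genes, and every member was counted well above the floor of 3 counts, from 137 counts at the lowest (Sh2b2) to 14161 at the highest (Jak1). Progenitor surface genes (Kit, Cd34, Ly6a, Flt3, Procr, Slamf1 and Cd48) were detected in all 7 libraries. Their summed level was 918 to 1110 CPM (counts scaled to an effective library size) in 5G2del and 852 to 1204 CPM in WT. The library WT-B stood apart, with 1104 listed genes at 0 counts against 83 to 492 in the others. Some of the results that rest on it are therefore also given without it. Neutrophil and monocyte markers were uneven: the 10 measured of 12 listed summed to 1626 CPM in 5G2del-A and 567 CPM in WT-A, against 221 to 294 CPM in the other 5G2del libraries and 187 to 251 CPM in the other WT libraries. Of the 10, 9 had fold changes above 0 and 1 below (median log2 fold change 1.91, against 0.03 over all genes). Of these markers, Lcn2, Ltf and Csf1r were at 0 counts in WT-B and Chil3 in WT-D. B lineage markers, 4 measured of 6 listed and all 4 with fold changes above 0, summed to 535, 56.1 and 327 CPM in 5G2del and 133, 31.3, 94.9 and 63.5 CPM in WT, with Igkc at 0 counts in WT-D. Erythroid markers, 7 measured of 8 listed and all 7 with fold changes below 0, summed to 38.9, 15.1 and 4.78 CPM in 5G2del and 59.1, 59.4, 12.7 and 13.7 CPM in WT, with Slc4a1 at 0 counts in 5G2del-B and 5G2del-C. The sums of the neutrophil and monocyte, B lineage and erythroid lists each overlapped between groups. In limma-trend 0 of their genes passed the adjusted threshold, and their part in the members' levels was not tested. In bulk RNA, fewer cells of a type and less RNA per cell cannot be told apart.

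Sh2b2 is the member that lies next to Cux1, and the human counterparts of both genes are in 7q22. In mm10 it spans chr5:136218147-136246556 on the minus strand (protein-coding), between Prkrip1 and Cux1. In the order A to C, the 5G2del libraries held 2.39, 2.45 and 1.74 log2 CPM, and in the order A to D the WT libraries held 2.66, 2.10, 2.52 and 2.66 log2 CPM. The same order is kept for every gene below. The groups overlapped, since WT-B lay below 2 of the 3 5G2del libraries and 5G2del-C was the lowest of all. The 5G2del mean was 2.19 ± 0.39 log2 CPM (SD, n = 3), beside a WT mean of 2.48 ± 0.27 (SD, n = 4). The log2 fold change of 5G2del over WT was -0.29 ± 0.34 (SE), with a 95% interval of -1.04 to 0.46, and it did not pass (limma-trend adjusted p = 0.989). Exact two-sided permutation over the 35 ways to split the libraries gave p = 0.314, where the smallest possible is 0.0286. Much of the difference came from 5G2del-C: without that library the log2 fold change was -0.07, and without WT-B it was -0.42.

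The genes beside Sh2b2 had more negative fold changes. The 3 nearest measured protein-coding genes before it were Alkbh4, at -1.12 ± 0.56 (SE), Orai2, a regulator of store-operated calcium entry, at -0.65 ± 0.23, and Prkrip1, at -0.55 ± 0.33. The 3 after it were the homeobox gene Cux1, at -1.12 ± 0.25, Myl10, at -2.03 ± 0.59, and Ift22, at -0.97 ± 0.36. Each of these 6 also missed the adjusted threshold (limma-trend adjusted p = 0.989 for each). Their unadjusted limma-trend p-values, in the order named, were 0.0687, 0.0180, 0.127, 0.00101, 0.00566 and 0.0207, beside 0.410 for Sh2b2. Of the 6, only Cux1 had groups without overlap, as had 5.7% of all genes. Alkbh4 was at -1.77 without 5G2del-A and at -0.54 without 5G2del-C, and Prkrip1 was at -0.39 without WT-B. Cux1 and Myl10 became more negative without 5G2del-C, at -1.48 and -2.93 (limma-trend adjusted p = 0.0601 for each). In 5G2del-C, Myl10 was at 4.01 log2 CPM, within the WT range of 3.62 to 4.85. Cux1 was at 8.01 log2 CPM there, beside 7.06 in 5G2del-A, 6.80 in 5G2del-B and 8.17 in the lowest WT library.

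Whether Sh2b2 differed from its neighbours was measured within each library, as its log2 CPM minus the mean of the 6. This difference was -1.05, -0.59 and -1.78 in the 5G2del libraries and -1.60, -2.46, -1.73 and -1.88 in the WT libraries, so Sh2b2 stood closer to its neighbours in 2 of 3 5G2del libraries than in any WT library. Its mean was -1.14 ± 0.60 (SD, n = 3) for 5G2del against -1.92 ± 0.38 (SD, n = 4) for WT. The gap between groups of 0.78 on the log2 scale did not pass (exact two-sided permutation p = 0.114). It was 0.51 without 5G2del-B, 0.60 without WT-B and 1.10 without 5G2del-C.

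**Figure D1:**
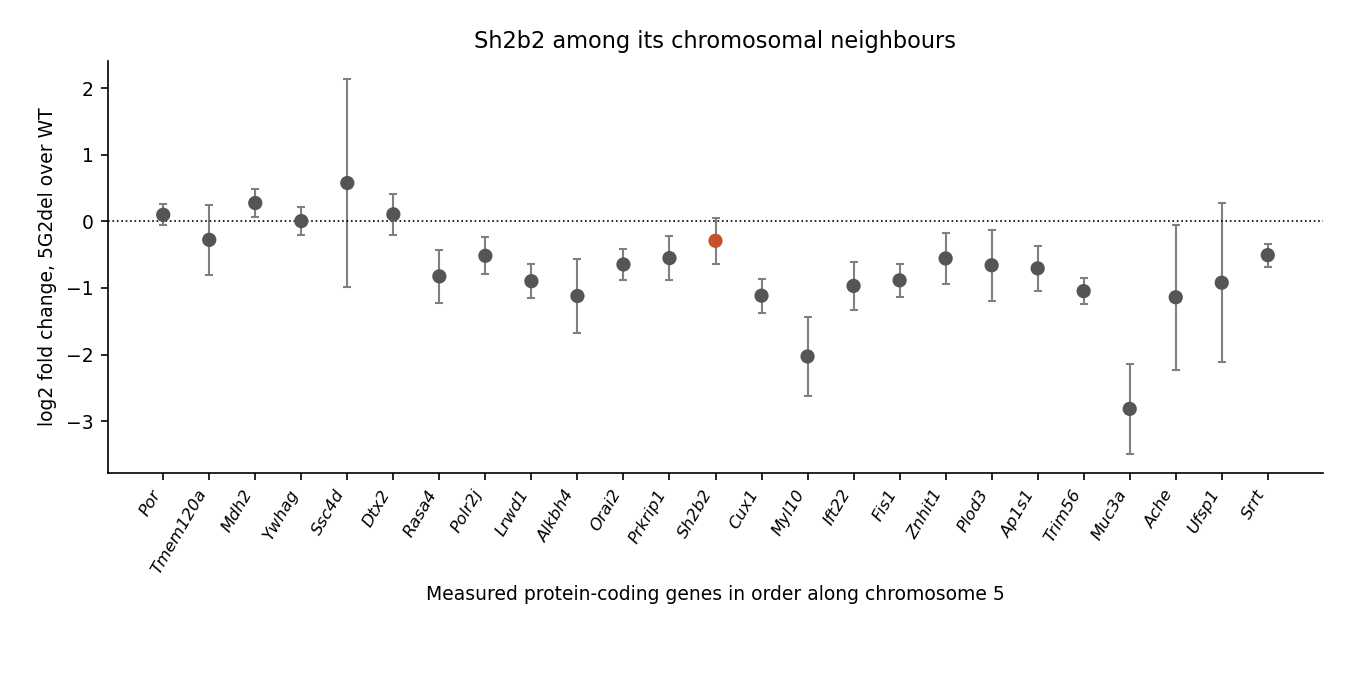
Log2 fold change (5G2del over WT, y axis) of Sh2b2 (orange) and the 12 measured protein-coding genes on each side of it, in order along chromosome 5 (x axis), with bars for 1 SE from limma-trend. Sh2b2 at -0.29 lies nearer to 0 than the 6 genes next to it, which run from -0.55 (Prkrip1) to -2.03 (Myl10).

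The other SH2B adaptors lie elsewhere: Sh2b1 on chromosome 7, and Sh2b3 on chromosome 5 at chr5:121815488-121837646, far from Sh2b2 on the same chromosome. Sh2b1 measured 4.94, 4.84 and 4.80 log2 CPM in 5G2del and 4.49, 4.58, 4.60 and 4.68 log2 CPM in WT. Every 5G2del library was thus above every WT library. The means were 4.86 ± 0.07 (SD, n = 3) and 4.59 ± 0.08 (SD, n = 4). This gave a log2 fold change of 0.27 ± 0.17 (SE), or 1.21 times the WT level. It missed the threshold with limma-trend (unadjusted p = 0.139, adjusted p = 0.989), and the log2 fold change stayed between 0.23 and 0.30 with any 1 library left out.

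Sh2b3 measured 6.05, 5.42 and 5.77 log2 CPM in 5G2del and 6.35, 5.58, 5.67 and 5.68 log2 CPM in WT. The highest library of each group was WT-A and 5G2del-A, which also held the most neutrophil and monocyte marker RNA of their groups (567 and 1626 CPM, with none of the 10 measured markers at 0 counts in either). This was not particular to that list. In 5G2del-A and WT-A the sums were also the highest of their groups for B lineage markers (535 and 133 CPM). The same held for T and NK (88.3 and 54.8 CPM), macrophage (14.4 and 10.9 CPM) and mast cell markers (3.59 and 1.76 CPM). Progenitor, erythroid, megakaryocyte and stromal marker sums were not highest in both libraries. The part of any of these cells in the Sh2b3 level was not tested. The log2 fold change of -0.08 ± 0.22 (SE) turned to 0.10 without WT-A and to 0.09 without 5G2del-B. Sh2b3 overlaps Atxn2 on the other strand, and strand use in counting is not stated, so reads of the pair may be mixed.

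Set against length, Sh2b3 was the main SH2B transcript and Sh2b2 the minor one. Of the summed counts per exonic base of the 3 genes, Sh2b3 took 51.7% to 71.1% over the 7 libraries, Sh2b1 24.0% to 42.4% and Sh2b2 3.24% to 6.37%. The 5G2del libraries gave Sh2b2 a mean share of 4.47% ± 1.32 (SD, n = 3), and the WT libraries one of 5.48% ± 0.80 (SD, n = 4). A difference within a library does not depend on how libraries were scaled, so Sh2b2 was also compared with the mean of Sh2b1 and Sh2b3 in the same library. Sh2b2 minus that mean was -3.10, -2.68 and -3.54 on the log2 scale in 5G2del, and -2.76, -2.98, -2.62 and -2.52 in WT. The groups overlapped at 5G2del-B, and the difference between groups of -0.39 did not pass (exact two-sided permutation p = 0.171). It was -0.60 without 5G2del-B and -0.17 without 5G2del-C.

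Jak2, the kinase bound by the erythropoietin receptor, had the lowest limma-trend p of the members. Its levels were 5.34, 5.10 and 5.37 log2 CPM in 5G2del and 5.90, 5.38, 5.79 and 5.72 log2 CPM in WT. Every 5G2del library was below every WT library, by a narrow margin at WT-B and a wider one at the other WT libraries. The means were 5.27 ± 0.15 (SD, n = 3) and 5.70 ± 0.23 (SD, n = 4). Jak2 thus had a log2 fold change of -0.43 ± 0.18 (SE), or 0.742 of the WT level. Its unadjusted p was 0.0345 and its adjusted p 0.989 in limma-trend, so it did not pass, and it ranked 440 of 16760 genes by p. With 1 library left out its log2 fold change ran from -0.54 (without WT-B) to -0.34 (without 5G2del-B). Exact two-sided permutation, not adjusted over genes, gave p = 0.0571 for Jak2 and p = 0.0286, the smallest possible, for Sh2b1.

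Jak1, the partner kinase of interferon and interleukin 6 family receptors, varied least. It measured 7.85, 7.83 and 7.98 log2 CPM in 5G2del and 7.99, 7.96, 7.87 and 7.89 log2 CPM in WT. The groups overlapped, with a log2 fold change of -0.04 ± 0.13 (SE) and a 95% interval of -0.33 to 0.25. Of the summed counts per exonic base of Jak1 and Jak2, Jak2 took 20.1%, 17.7% and 19.0% in 5G2del and 25.3%, 19.3%, 25.4% and 24.1% in WT, so that WT-B fell among the 5G2del libraries on this share. Jak1 overlaps Raver2 on the other strand.

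**Figure D2:**
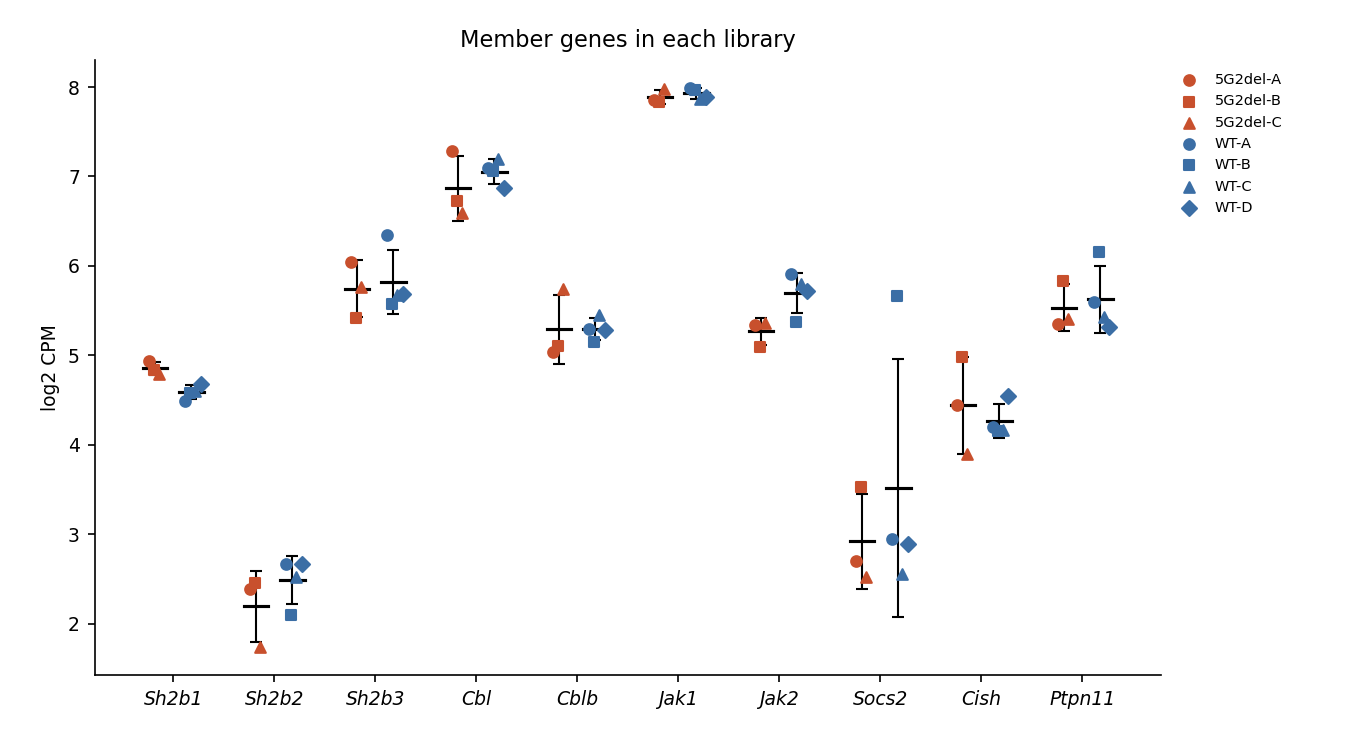
Log2 CPM (y axis) of the 10 members (x axis) in each library, 3 of 5G2del (orange) and 4 of WT (blue), with symbols for single libraries and black bars for the mean and SD of a group. Sh2b1 and Jak2 are the members whose groups do not overlap, and the high WT value of Socs2 is WT-B at 5.66.

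The CBL ligases did not separate the groups. Cbl, which ubiquitinates active KIT and other receptors, was at 7.28, 6.72 and 6.59 log2 CPM in 5G2del and 7.10, 7.06, 7.19 and 6.87 log2 CPM in WT. The highest value of all was 5G2del-A and the lowest 5G2del-C. The log2 fold change was -0.19 ± 0.18 (SE), and with 5G2del-A left out it was -0.40, with 5G2del-B left out it was -0.12 and with 5G2del-C left out -0.05. Cblb, its relative known for restraining lymphocyte activation, was at 5.03, 5.11 and 5.74 log2 CPM in 5G2del and 5.29, 5.15, 5.46 and 5.28 log2 CPM in WT. Here 5G2del-C was the highest library and 5G2del-A the lowest, the reverse of Cbl, and the log2 fold change was 0.00 ± 0.20 (SE) with a sign that turned in several settings. Cbl took 80.1%, 72.2% and 60.6% of the summed counts per exonic base of the pair in 5G2del and 71.9% to 76.1% in WT, so the 5G2del libraries spread on both sides of the WT range. Cbl overlaps 1 other listed transcript on its own strand, 5830462O15Rik, and reads of the pair may be mixed.

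Cish and Socs2 encode SOCS proteins that STAT5 induces and that dampen cytokine receptor signalling in return. The Cish promoter is shown because Cish is a common readout of STAT5 and the window holds matches to a STAT motif. In the RefSeq sequence (GRCm38.p6, chr9:107296409-107296708, plus strand, 250 bases before to 50 bases after the start) the motif TTCNNNGAA, a palindrome that reads alike on both strands, occurs 2 times, from bases 251 and 262 of the window. Capitals mark both matches.
Cish promoter: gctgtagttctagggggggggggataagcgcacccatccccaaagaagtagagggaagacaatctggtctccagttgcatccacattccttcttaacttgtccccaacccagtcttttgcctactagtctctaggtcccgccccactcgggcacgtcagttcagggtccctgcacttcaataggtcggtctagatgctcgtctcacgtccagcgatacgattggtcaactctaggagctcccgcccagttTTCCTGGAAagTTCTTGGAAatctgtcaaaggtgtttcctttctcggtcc
Of 32851 promoters of this length, 8.3% hold the motif at least 1 time and 0.457% at least 2 times. Promoters were matched for 9 of the 10 members (10 promoters), and the Cish promoter was the 1 that held it. A match describes letters in this window and does not show that STAT5 is bound there.

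Cish measured 4.45, 4.98 and 3.90 log2 CPM in 5G2del and 4.20, 4.16, 4.17 and 4.54 log2 CPM in WT. The 5G2del libraries held both the highest value (5G2del-B) and the lowest (5G2del-C), with the WT libraries between them. The log2 fold change of 0.17 ± 0.26 (SE) did not pass (limma-trend adjusted p = 0.989). It was -0.10 without 5G2del-B and 0.45 without 5G2del-C. Socs2 measured 2.71, 3.53 and 2.52 log2 CPM in 5G2del and 2.95, 5.66, 2.56 and 2.89 log2 CPM in WT. WT-B alone was high, and the other 6 libraries lay within 2.52 to 3.53. The log2 fold change of -0.60 ± 0.64 (SE) turned to 0.12 without WT-B. WT-B was not the highest library for Cish, where it was the lowest WT value.

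Ptpn11 encodes SHP2, a phosphatase that carries receptor signals towards Ras and is often mutated in juvenile myelomonocytic leukaemia in humans. It was at 5.35, 5.83 and 5.41 log2 CPM in 5G2del and 5.60, 6.16, 5.43 and 5.32 log2 CPM in WT. WT-B was the highest library and 5G2del-B the next, the same pair and order as for Socs2. The log2 fold change was -0.09 ± 0.22 (SE), and without WT-B it was 0.08. Ptpn11 lies on chromosome 5 at chr5:121130533-121191397, near Sh2b3 and away from the genes beside Sh2b2. It overlaps the listed transcript Gm42930 on its own strand, and reads of the pair may be mixed.

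Over the 10 members, 0 passed adjusted p 0.05 in limma-trend, as did 0 of 16760 genes (0.0%). At an unadjusted p under 0.05 there was 1 member, Jak2, against 656 genes or 3.91% of all tested (2.24% lower and 1.68% higher). That count was 0 without the trend and without 5G2del-B, WT-A, WT-C or WT-D, and without 5G2del-A the 1 such member was Cbl in place of Jak2. The authors' deposited table also held 0 members past 0.05, and in it Jak2 had the lowest unadjusted p of them, 0.0323. Groups did not overlap for 2 of 10 members, Sh2b1 higher and Jak2 lower, against 5.7% of all genes (2.78% lower and 2.92% higher). Fold changes were below 0 for 8 of 10 members and for 46.7% of all genes, and the median log2 fold change was -0.08 for the members and 0.03 for all genes. The 8 members below 0 include Cblb at -0.001 and Jak1 at -0.04. That count was 7 without 5G2del-A, 5G2del-B, WT-A or WT-C, and 6 without WT-B. With 1 library left out, the member median ran from -0.16 (without WT-D) to -0.04 (without WT-B).

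**Figure D3:**
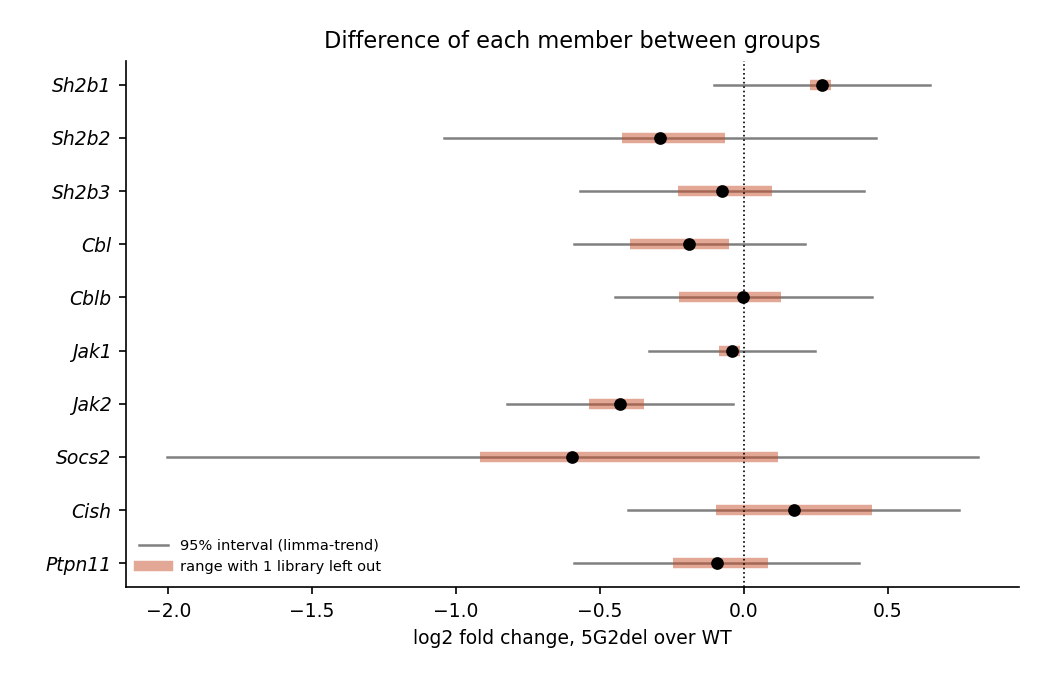
Log2 fold change (5G2del over WT, x axis) of each member (y axis) as a point, with its 95% interval from limma-trend as a grey line and the range of values with 1 library left out as an orange bar. The unadjusted interval of Jak2 lies below 0 (-0.82 to -0.04), while those of the other 9 members include 0, widest for Socs2 (-2.01 to 0.81).

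The members were also compared as counts per exonic base (log2 RPKM, counts scaled to effective library size and exon length, over 7 libraries). Jak1 was the most abundant member at 5.06 ± 0.07 (SD), above the next gene in 7 of 7 libraries without overlap. Sh2b3 (3.52 ± 0.31), Cbl (3.35 ± 0.25) and Jak2 (3.18 ± 0.29) followed with overlapping ranges. Sh2b1 (2.73 ± 0.16) and Ptpn11 (2.68 ± 0.31) overlapped each other, and Sh2b1 reached into the range of Jak2. Cblb (1.90 ± 0.24) and Cish (1.66 ± 0.35) came next, with Cblb below Ptpn11 in 7 of 7 libraries and Cish above Socs2 in 6 of 7. Socs2 (0.01 ± 1.11) and Sh2b2 (-0.08 ± 0.33) were the lowest and could not be ordered, since Socs2 was above Sh2b2 in 2 of 7 libraries and below it in the rest. These levels use all annotated exons of a gene as its length, which understates genes expressed from shorter transcripts.

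Other genes of the pathway were read from lists. The counts in this and the following lists stand beside shares over all genes. Of all genes, 3.91% had an unadjusted limma-trend p under 0.05, and 5.7% had groups without overlap. Among 9 JAK and STAT genes other than the members, all measured, 5 were lower and 4 higher (median log2 fold change -0.19, against 0.03 over all genes). None passed the adjusted threshold in limma-trend, and 2 had an unadjusted p under 0.05. Stat3, which acts downstream of interleukin 6 and G-CSF, was one of the 2. It measured 6.58, 6.39 and 6.48 log2 CPM in 5G2del and 6.87, 7.13, 6.60 and 6.82 log2 CPM in WT, a log2 fold change of -0.37 ± 0.16 (SE; limma-trend unadjusted p = 0.0392, adjusted p = 0.989). Without WT-B the Stat3 value was -0.28. All 5G2del libraries lay below all WT libraries for Stat3. The same held for Stat4 (-0.34 ± 0.20, and -0.17 without WT-B), a gene named after its values were seen. The list median was -0.34 without 5G2del-A and -0.03 without 5G2del-B.

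Stat5a and Stat5b, the STATs known to induce Cish and Socs2, had fold changes of opposite sign and are likewise named after their values were seen. Stat5a had a log2 fold change of 0.31 ± 0.18 (SE) and Stat5b of -0.26 ± 0.19 (SE), and for each the groups overlapped. Of 10 STAT5 target genes beyond the members, 5 were higher and 5 lower (median 0.03). In limma-trend 0 were past the threshold and 1, Bcl6, was at an unadjusted p under 0.05. That median ran from -0.05 without WT-D to 0.24 without 5G2del-C. The list pools induced genes with Bcl6, described below as held down by STAT5, so its split and median are no readout of STAT5 activity. Ccnd3, a G1 cyclin, measured 5.95, 6.13 and 5.99 log2 CPM in 5G2del and 5.83, 5.69, 5.68 and 5.69 log2 CPM in WT, without overlap and with a log2 fold change of 0.30 ± 0.15 (SE; limma-trend unadjusted p = 0.0633). Bcl6, a repressor that STAT5 holds down in lymphoid cells, had -1.21 ± 0.47 (SE), which rested largely on 5G2del-B at 1.08 log2 CPM and was -0.54 without it. Osm, a cytokine gene named after its values were seen, had 0.97 ± 0.57 (SE) without overlap of the groups, and 0.38 without WT-B.

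Of 24 receptor genes 23 were measured, 16 lower and 7 higher, with a median log2 fold change of -0.11, 0 past the threshold in limma-trend and 1 at an unadjusted p under 0.05. That median was -0.20 without 5G2del-A and 0.00 without 5G2del-B. Csf2rb2, the receptor subunit specific to interleukin 3 in mice, stood lowest by p. It measured 3.30, 3.13 and 3.31 log2 CPM in 5G2del and 3.83, 3.96, 3.91 and 3.89 log2 CPM in WT, a clear gap with little spread in either group. Its log2 fold change was -0.65 ± 0.21 (SE), or 0.636 of the WT level, with unadjusted p = 0.0110 and adjusted p = 0.989 in limma-trend, and it ran from -0.68 to -0.60 with 1 library left out. Its sequence is close to that of Csf2rb, so RSEM may have split their reads. Ifngr1, an interferon gamma receptor chain, had -0.33 ± 0.22 (SE), and -0.09 without 5G2del-B and -0.55 without 5G2del-A. Igf1r, named after its values were seen, was the other receptor gene without overlap, at -0.15 ± 0.14 (SE). Of receptors to which SH2B3 or CBL bind, and likewise named afterwards, Kit had 0.09 ± 0.13 (SE) and Flt3 -0.20 ± 0.24 (SE), each with overlapping groups.

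Of 24 other brakes of cytokine receptors 23 were measured, 12 lower and 11 higher, with a median of 0.00, 0 past the threshold in limma-trend and 1 at an unadjusted p under 0.05. That median was -0.11 without 5G2del-A and 0.13 without 5G2del-C. Ptprc, which encodes the phosphatase CD45, measured 7.19, 6.87 and 7.22 log2 CPM in 5G2del and 7.47, 7.20, 7.83 and 7.51 log2 CPM in WT. 5G2del-C just exceeded WT-B, and the log2 fold change was -0.41 ± 0.18 (SE; limma-trend unadjusted p = 0.0385, adjusted p = 0.989). Pias4, a SUMO ligase that inhibits STAT activity, measured 4.05, 3.31 and 3.93 log2 CPM in 5G2del and 3.26, 3.23, 3.18 and 3.28 log2 CPM in WT. Its groups did not overlap, but 5G2del-B was close to WT, and the log2 fold change of 0.52 ± 0.25 (SE) was 0.38 without 5G2del-A.

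Of 21 adaptors and partners downstream of receptors 20 were measured, 12 lower and 8 higher, with a median of -0.05 that was -0.18 without 5G2del-A and 0.07 without 5G2del-B. None of the 20 passed the adjusted threshold or an unadjusted p of 0.05 in limma-trend, and in none were the groups apart. Cd2ap, a scaffold that binds CBL, had the lowest p, with a log2 fold change of -0.50 ± 0.23 (SE) that was -0.33 without WT-D. Gab2, an adaptor that recruits SHP2, had 0.43 ± 0.24 (SE), and 0.24 without WT-B.

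**Figure D4:**
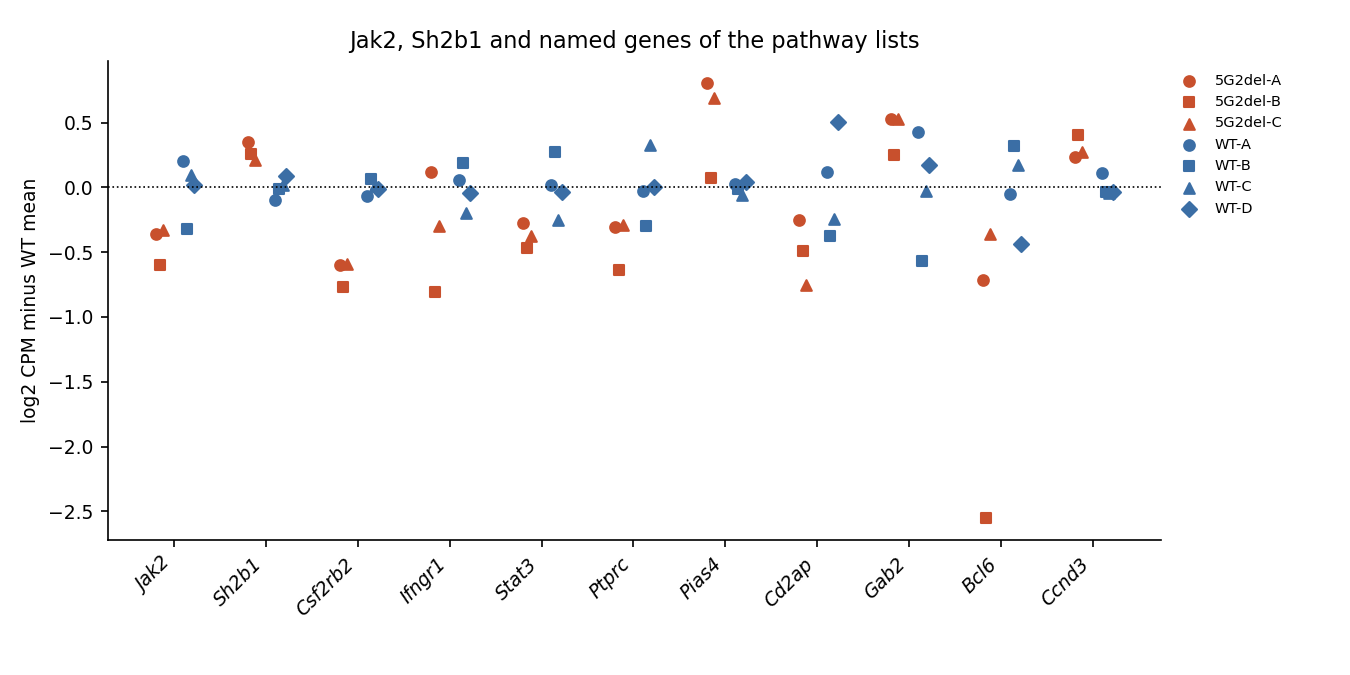
Log2 CPM minus the WT mean of the gene (y axis) in each library of 5G2del (orange) and WT (blue), for Jak2, Sh2b1 and 9 named genes of the pathway lists (x axis). Csf2rb2, Stat3 and Jak2 lie lower in all 3 5G2del libraries than in any WT library, while the low Bcl6 point at 1.08 log2 CPM is 5G2del-B.

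The genes whose levels followed Sh2b2 most closely over the 7 libraries were the zinc finger genes Zfp953 (Pearson correlation 0.98) and Zfp595 (0.95) on chromosome 13 and the ubiquitin ligase gene Rnf115 (0.96) on chromosome 3. They are the top 3 of the 10357 other genes whose mean log2 CPM exceeded 2, and 29 of these had a correlation over 0.9. Like Sh2b2, all 3 were lowest in 5G2del-C. With 7 points and so many genes, these values describe a shared order of libraries, which also share depth and scaling.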

How the data were processed

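The study measured RNA in 3 5G2del and 4 WT libraries by paired-end sequencing after whole-transcript amplification, per the labels' protocols. The authors deposited 1 table of log2 CPM values with their own log2 fold changes, moderated t scores, p-values and q-values. STAR 2.7.9a, RSEM 1.3.0 and limma 3.50.3, and the builds mm10 and GRCh38 with no role stated, were named per the submitters' processing notes. The sources used here give neither the annotation nor the filter on low genes, and genes below that filter were not analysed here. Columns show a library's group but not its sample, so libraries carry letters.

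From the deposited log2 CPM values, expected counts (2 decimals, offset 0.5) were recovered, which gave depth and per-length levels; 71.8% were whole within 0.01, so no count model was used. A voom fit on them differed from the deposited fold changes by at most 4.5e-14. The library sizes recovered alongside were 41220903 for 5G2del-C and 34865420 for WT-C. Both lie below the counts on listed genes (47664360 and 42038974), so CPM and RPKM rest on effective sizes, not plain totals. Repeat amplifications of 1 RNA could not be told apart from separate samples. The comparison used limma 3.58.1 (limma-trend) in R 4.3.3 on all 7 libraries, with Benjamini-Hochberg adjustment over 16760 genes and a threshold of 0.05. Its intervals were checked on simulated data with known changes and independent normal noise. How many true changes of a given size would be missed here is not given. Gene positions and exon lengths came from GENCODE M21 (mm10), which matched 16748 genes by identifier, and promoters from RefSeq (GRCm38.p6). The members and lists were chosen with earlier results of these data known. Genes outside the members were named by lowest p within a list at a mean log2 CPM over 2 (2 a list), by position beside Sh2b2 (3 a side) or by correlation with Sh2b2 (3), unless stated. The comparison of Sh2b2 with its neighbours was added after the data were seen. Values of some pathway and marker genes are not reported here.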

Additional observations from a re-analysis of the deposited data

Results flagged for a closer look

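Within the WT group, 5 of 32 genes examined had 1 library far from the other 3 (Dixon ratio over 0.829). Chance gives such a distance in about 1 of 20 independent groups of normal values. The 32 genes share the same libraries and some were named by their values, so 5 of 32 cannot be read as an excess. WT-A was the highest for Sh2b3, at 6.35 log2 CPM, and for Ccnd3, at 5.83 log2 CPM. WT-B was the highest for Socs2, at 5.66 log2 CPM, and the lowest for Osm, at -0.108 log2 CPM. WT-D was the highest for Cish, at 4.54 log2 CPM. The 5G2del group, with 3 libraries, was not examined this way.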

How the results depend on the processing

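No single gene examined passed adjusted p 0.05 in any setting (limma alone, with and without trend or voom weights, quantile normalization, median centring, an offset of 2 counts, a minimum mean of 2 log2 CPM, and each library left out). Over all genes, 0 were called in limma-trend, 1 without the trend (Sfrp5), and 0 to 1 with 1 library left out (Thbs1 without 5G2del-C). Of 415 alternative values of single genes, 11 turned in sign, in 6 of 32 genes, 5 of them members. Cblb was at 0.00062 with voom weights and 0.0083 with quantile normalization. With 1 library left out Cblb ran from -0.22 to 0.13, Sh2b3 from -0.23 to 0.10, Socs2 from -0.91 to 0.12, Cish from -0.10 to 0.45, Ptpn11 from -0.24 to 0.084 and Rnf115 from -0.20 to 0.017. Sh2b2 ran from -0.42 to -0.07, and its difference from Sh2b1 and Sh2b3 from -0.60 to -0.17. The causes were not tested. No paired analysis was possible because the column names carry no sample number, and column order was not taken as a tie. The members had 137 expected counts or more in every library.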
